A study of Mus musculus with 12 samples.

Results

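Histone genes encode the proteins that package DNA into chromatin, and 75 of them were followed here among the 19547 genes of a count table from mouse fat grafts. They are the protein-coding genes whose symbols carry a histone prefix (Hist1h to Hist4h, H1f, H2a, H2b, H3f, H3c or H4c), 75 of the 79 rows so named, with 4 pseudogene rows left out. Classed by symbol, 62 are replication-dependent genes (5 H1, 17 H2A, 17 H2B, 12 H3 and 11 H4), 11 are variants and 2, H2ac1 and H2bc1, are testis genes of the histone cluster. The symbols H2aw and H2bu2, which lie outside the usual pattern, were placed with the replication-dependent genes through their older names Hist3h2a and Hist3h2ba. Variants named outside these prefixes, such as macroH2A genes, were not counted.

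The series compared 3 groups of grafted adipose tissue, 4 libraries each, all from wild-type C57BL/6 mice aged 16 weeks, with grafts taken after 8 weeks. In the CAL_Dll4i group the fat was grafted with ASC, a term for stem or stromal cells of adipose tissue, and Dll4, a Notch ligand of vessel cells, was inhibited. The CAL group (cell-assisted lipotransfer) had the fat with ASC and no inhibition, and the control group had the fat graft. The labels do not say how many animals gave the libraries, so p-values measure the spread between these samples, which may be technical, and nothing in them tells added cells from host cells.

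In mammals, replication-dependent histone genes sit in clusters, lack introns and are transcribed mainly while DNA is copied. Their transcripts usually end in a short hairpin, the stem-loop, in place of a poly(A) tail. The stem-loop is bound by the protein Slbp, which is needed for processing and translation of the transcript. Variant genes such as H3f3a and H3f3b, which encode histone H3.3, and H2afz, which encodes H2A.Z, are polyadenylated and are transcribed through the cell cycle and in resting cells. The libraries were made from total RNA by exon capture, so transcripts without a poly(A) tail could enter them.

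Because the stem-loop is the sequence by which the classes differ, it was searched for in the 3′ UTRs of GENCODE mouse transcripts as the 16-base pattern GGNNCTT, then NTNAGNN, then CC, where N is any base, on the transcript strand. It was found in 43 of the 49 replication-dependent genes whose UTR model was at least 30 bases long (87.8%), in 1 of 10 variants (10%) and in 86 of all 20857 coding genes with such a model (0.412%). The UTR models of the other 13 replication-dependent genes were too short to search. A single 16-base form was shared by 26 genes of the H1, H2A, H2B and H3 families, and the H4 genes carried other stems. The sequences below stand for that split: an H1, an H2A, an H2B and an H3 gene with the shared form, 4 H4 genes and the single variant with a match. Capitals mark the 16-base match, with the bases on either side in lower case, 5′ to 3′.
H1f2: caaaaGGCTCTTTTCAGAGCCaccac
H2ac18: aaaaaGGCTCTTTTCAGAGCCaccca
H2bc8: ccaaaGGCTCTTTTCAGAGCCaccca
H3c14: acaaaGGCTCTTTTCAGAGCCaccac
H4c3: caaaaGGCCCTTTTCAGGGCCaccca
H4c4: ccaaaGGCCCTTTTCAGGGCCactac
H4c2: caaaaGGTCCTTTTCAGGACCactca
H4c1: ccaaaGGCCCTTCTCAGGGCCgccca
H2afx: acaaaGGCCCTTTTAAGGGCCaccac
The form shared by 26 genes has the stem GGCTCT with AGAGCC, 5 of the H4 genes have GGCCCT with AGGGCC around the same loop, and H4c2 and H4c11 have GGTCCT with AGGACC. H2afx, which encodes H2A.X, a variant known for its phosphorylation at DNA breaks, has an H4-type stem. The 6 replication-dependent genes with a long enough UTR model and no match were H2bc4, H2bc21, H1f1, H3c13, Hist1h2bq and Hist1h2br. No match says only that these letters are not in the modelled UTR. A match could lie anywhere in that UTR, and in the printed genes 28 (H4c2) to 1162 (H3c14) modelled bases followed it. A match thus does not show that the transcript ends there.

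The clusters were compact. On build GRCm38.p6, 50 replication-dependent genes lay on chromosome 13 between positions 21715711 and 23764412, 10 lay on chromosome 3 between 96219885 and 96270192, and H2aw and H2bu2 lay on chromosome 11. An H2A and an H2B gene faced each other head to head in 10 pairs, with 164 to 281 bases between their starts. The pair 281 bases apart is that of the testis genes H2ac1 and H2bc1. Only genes with a promoter window, described next, could be paired, and H2bc4 and H2bc21 had none. Promoter windows from RefSeq (250 bases before to 50 after the start) were matched for 57 of the 62 replication-dependent genes and searched on both strands for 3 motifs known from histone promoters. The CCAAT motif was present in 87.7% of the replication-dependent windows, against 50% of 10 variant windows and 41.1% of all 27025 windows. The TATAAA motif was present in 57.9% of the replication-dependent windows, 10% of the variant windows and 15.7% of all windows. The octamer ATTTGCAT, known as a binding site of Oct factors in H2B promoters, was present in 21.1%, 10% and 1.97% of the same sets, and among replication-dependent genes in 35.3% of H2A, 40% of H2B and no H1, H3 or H4 windows. The families differed for CCAAT as well, which was present in every matched H1, H2A, H2B and H3 window and in 30% of the H4 windows.

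The 200 bases before the start are shown for H2bc3, whose window holds all 3 motifs, and for H4c3 and H4c1, the H4 genes with the smallest p in CAL against control. Capitals mark the 3 motifs on either strand, so that ATTGG is CCAAT on the other strand, and each sequence is on the gene's own strand.
H2bc3: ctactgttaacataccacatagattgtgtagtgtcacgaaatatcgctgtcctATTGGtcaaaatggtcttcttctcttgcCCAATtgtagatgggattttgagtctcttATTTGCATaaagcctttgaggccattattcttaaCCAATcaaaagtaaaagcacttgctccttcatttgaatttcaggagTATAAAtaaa
H4c3: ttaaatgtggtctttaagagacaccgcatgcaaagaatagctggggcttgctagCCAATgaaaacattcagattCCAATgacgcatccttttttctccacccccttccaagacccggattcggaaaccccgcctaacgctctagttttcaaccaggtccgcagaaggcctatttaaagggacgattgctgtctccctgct
H4c1: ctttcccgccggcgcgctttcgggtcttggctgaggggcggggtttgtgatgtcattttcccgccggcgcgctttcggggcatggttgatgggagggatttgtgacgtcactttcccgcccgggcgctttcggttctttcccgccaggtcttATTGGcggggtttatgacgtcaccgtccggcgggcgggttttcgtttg
H2bc3 lies on the plus strand of chromosome 13, and its printed stretch is chr13:23746534-23746733. The H4c3 stretch is chr13:23698459-23698658 and the H4c1 stretch is chr13:23761250-23761449, both on the minus strand. The TATAAA match of H4c1 lies in its window outside the printed stretch. Matches are descriptions of letters and not of bound factors.

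The grafts as a whole can be described briefly. Libraries held 55883051 to 70804141 counts, of which the replication-dependent genes took 91007 to 148682 counts, or 0.141% to 0.214%. The 8 adipocyte markers were present in every library and summed to 1289 to 1699 CPM (counts scaled to a common library total) in CAL_Dll4i, 1771 to 2541 CPM in CAL and 731 to 1690 CPM in control grafts. A list of 4 skeletal muscle genes summed to 353.7 CPM in CAL_Dll4i replicate 3. The sum was 95.4 CPM in CAL replicate 1, 205.2 CPM in CAL replicate 2 and 1.79 to 9.87 CPM in the other 9 libraries. The 3 libraries with muscle RNA are marked beside the results below that they touch. Sums of 4 keratinocyte genes were 4.02 to 332 CPM in CAL_Dll4i, 3.59 to 53.2 in CAL and 3.24 to 184 in control. Among controls, the sum of 6 erythroid genes ran from 320 CPM in replicate 4 to 1397 CPM in replicate 3. Libraries high in these 2 lists are not marked below, and their part in the histone values was not tested. Dll4 transcript in CAL_Dll4i against CAL had an estimated log2 fold change of 0.25 ± 0.14 (SE, adjusted p = 0.713), and since Dll4 was inhibited and not deleted, its transcript does not check the labels. In the whole table, edgeR's quasi-likelihood test called 1 gene (Vsig8) in CAL against control and 0 in each of the other comparisons at an adjusted p under 0.05. DESeq2 called 633 genes in CAL against control, 1 in CAL_Dll4i against CAL and 61 in CAL_Dll4i against control.

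All 62 replication-dependent genes were detected in every library, and their levels per length spanned from 7.24 TPM (the deposited transcript level per length) for H2bu2 to 673 TPM for H4c4, with a median of 113 TPM. In TPM, the leading genes of each family were H1f4 (83.6) and H1f2 (71.9) among the linker histones that bind DNA between nucleosomes, H2ac18 (372) and H2ac19 (348) for H2A, H2bc4 (271) and H2bc8 (198) for H2B, H3c13 (200.5) and H3c14 (198) for H3, and H4c4 (673), H4c3 (217) and H4c14 (215) for H4. H4c4 alone was thus 3.11 times the next H4 gene in TPM, and the H3 genes ran from 90.2 TPM (H3c3) to 200.5 TPM (H3c13). Variants overlapped this range: H3f3a had 390 TPM, H2afz 186, H3f3b 138, H2afj 50.9, H1f0 48.4, H2afx 32.6, H2afv 24.6 and H3f3c 14.7 TPM. H3f3a and H3f3b encode the same protein from different genes, and H3f3a stood 2.83 times above H3f3b per length. H1f10 (1.97 TPM), H2al1m (2.06 TPM) and H2al1k (0.837 TPM) were each under 1 CPM. The testis genes were close to absent: H2ac1 had 1 or 2 counts in every library and was not tested, and H2bc1 had 18 to 41 counts.

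**Figure D1:**
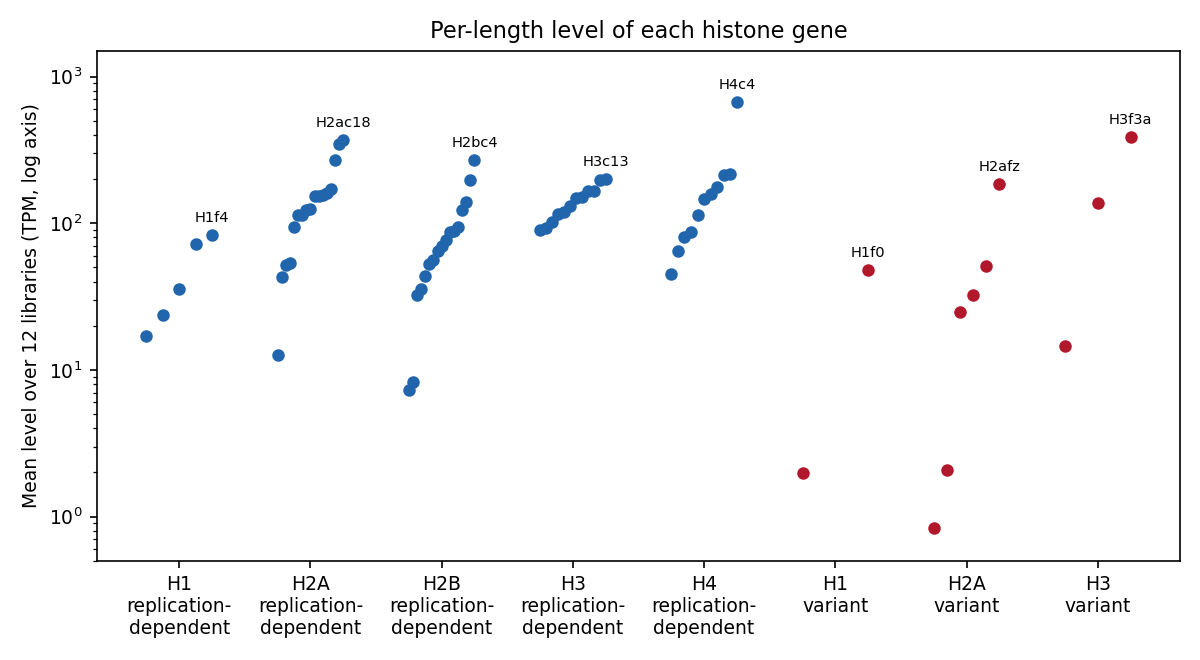
Mean level over the 12 libraries of each replication-dependent (blue) and variant (red) histone gene, in TPM on a log axis, by family, with the highest gene of each column named. H4c4 at 673 TPM stands above the other H4 genes, and the variants run from H2al1k at 0.837 TPM to H3f3a at 390 TPM.

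Many of these genes are close copies, which limits what a single gene's count can say. Of the 50-base stretches of a replication-dependent transcript, a median of 49.6% also occurred in another histone transcript. In 30 of the 62 genes 50% or more of the stretches were shared, and in 5 none was. H2ac19 shared 100% of its stretches with H2ac18, and the ratio of their counts (H2ac19 over H2ac18) was 1.00, 1.00, 1.01 and 1.00 in CAL_Dll4i, 1.00, 1.01, 0.997 and 1.01 in CAL and 1.01, 1.00, 0.999 and 1.01 in control libraries. The 2 counts were nearly equal in all 12 libraries, and the pair is better read as 1 value. Among the other genes described below, Hist1h2bq (100%), Hist1h2br (99.8%), Hist1h4m (89.8%), Hist1h4n (85.6%), H3c13 (79.7%) and H2ac15 (52.3%) are uncertain for the same reason, H4c1 shared 40.4% and H4c3 19.6%, and H3f3a, H3f3b, H2afz, H2afv and H1f0 shared none. No transcript was matched for H3f3c, so stretches that H3f3c may share with H3f3a, H3f3b or others were not examined.

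Summed over the 62 genes, replication-dependent histone transcripts were at 1667 ± 121 CPM in CAL_Dll4i, 1764 ± 195 CPM in CAL and 1732 ± 286 CPM in control grafts (mean ± SD, n = 4 each). Library by library the sum was 1798, 1596, 1538 and 1736 CPM in CAL_Dll4i replicates 1 to 4, 1589, 1634, 1818 and 2015 CPM in CAL and 1783, 1667, 1395 and 2085 CPM in control. The control libraries held both the lowest value (replicate 3) and the highest (replicate 4) of all 12, 1.49 times apart, and the other groups fell between them. The summed variants lay within a narrower span, 514, 529, 491 and 548 CPM in CAL_Dll4i, 503, 494, 475 and 481 CPM in CAL and 481, 496, 528 and 529.7 CPM in control, with the highest library 1.15 times the lowest. In bulk tissue, fewer cells in S phase and less histone RNA per cell cannot be told apart.

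**Figure D2:**
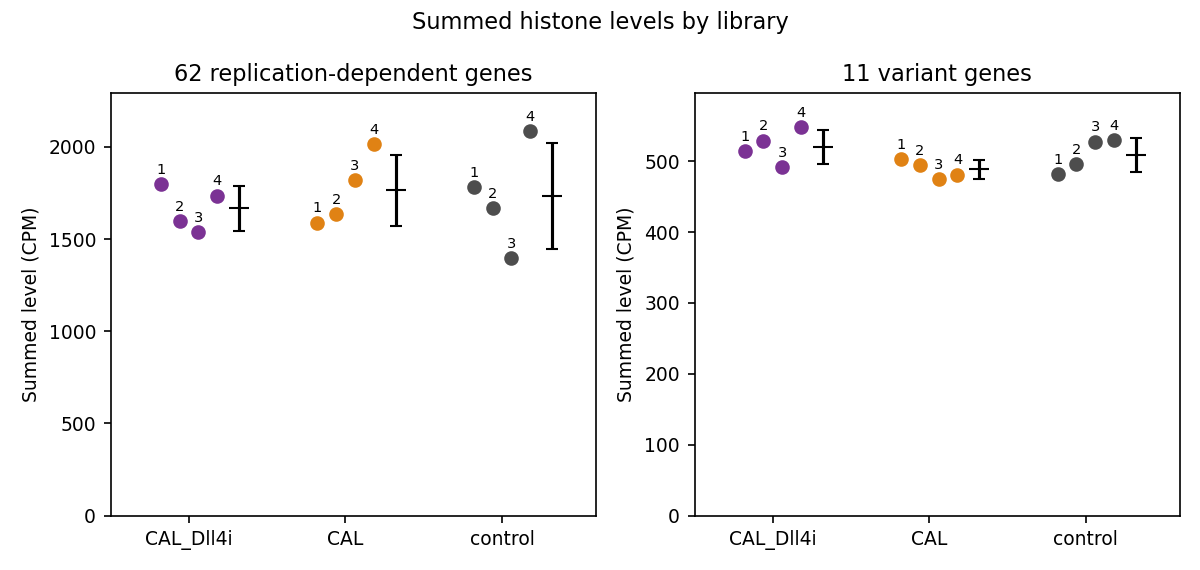
Summed level in CPM of the 62 replication-dependent genes (left) and the 11 variants (right) in each library, numbered by replicate, with the mean and SD of each group beside the points. The replication-dependent sum spreads most among the control libraries, from 1395 to 2085 CPM, and the variant sum stays between 475 and 548 CPM.

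The spread between controls ran through most of the class. Control replicate 3 was the lowest of the 12 libraries for 37 of the 62 replication-dependent genes, and control replicate 4 was the highest for 37. Within the 4 controls those libraries were lowest and highest for 56 genes each. The median coefficient of variation of a replication-dependent gene was 12.4% in CAL_Dll4i, 14.5% in CAL and 20.8% in control libraries, while that of the 8 variants of at least 1 CPM was 6.87%, 5.48% and 7.32%. Of the replication-dependent genes, 2 ran the other way and were highest of all libraries in control replicate 3: H2bc4, an H2B gene with no stem-loop match in its UTR, and H1f2, a linker histone gene. H2bc4 had 70.1, 75.3, 76.5 and 81.2 CPM in CAL_Dll4i, 58.7, 74.9, 84.4 and 87.3 CPM in CAL and 77.5, 84.1, 102 and 82.4 CPM in control libraries, and its lowest value was in CAL replicate 1, a library with muscle RNA.

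The replication-dependent sum varied together with genes of cell division. Over the 12 libraries, the replication-dependent sum correlated with the sum of 22 mitosis genes (such as Mki67, Top2a and Cdk1) at Pearson r = 0.862 and Spearman rho = 0.888, and at r = 0.826 without the 2 libraries farthest from the median of the mitosis sum. With each value taken as its deviation from the group mean, r was 0.943. Without taking deviations, the replication-dependent sum and the sum of 31 genes of DNA replication and S phase gave r = 0.714 and rho = 0.783. These are 2 of 12 relations computed, they are given as descriptions with no p, and both measures share library scaling. The variant sum gave r = -0.145 with the replication-dependent sum, and the sums of B cell, T cell and histone chaperone genes gave 0.05, 0.51 and 0.005. With deviations from group means, r was 0.726 for S phase, 0.559 for neutrophil, 0.559 for keratinocyte and 0.487 for T cell genes. It was 0.364 for histone processing, 0.087 for B cell and -0.041 for histone chaperone genes. Erythroid, skeletal muscle and adipocyte genes gave -0.544, -0.399 and -0.388. The lowest mitosis sums were in CAL_Dll4i replicate 3 (796 CPM) and control replicate 3 (856 CPM), and the highest was in control replicate 4 (1237 CPM).

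Single genes differed in how closely they followed the mitosis sum. The median r was 0.889 for H2A, 0.811 for H2B, 0.808 for H3, 0.773 for H1 and 0.283 for H4 genes. The variants were split: H2afx, the variant with a stem-loop, had r = 0.917, H2afz had r = 0.775 and the other 6 of at least 1 CPM lay between -0.362 (H3f3c) and 0.021 (H2afv). H2afx had 19.97, 15.3, 17.04 and 17.97 CPM in CAL_Dll4i, 18.3, 16.97, 18.5 and 19.4 CPM in CAL and 22.2, 18.4, 16.8 and 22.8 CPM in control libraries, and was highest in control replicate 4, as most replication-dependent genes were. The lowest r among replication-dependent genes was -0.397 for H2bc21, an H2B gene without a stem-loop match and with 0% of its stretches shared. The class was set by symbol, so whether H2bc21 belongs to it is uncertain. Next came H4c3 (-0.081), H2ac21 (-0.077), H2bc4 (0.061), Hist1h4m (0.071) and H1f2 (0.189). Of the other genes without a match, H1f1 had r = 0.701, H3c13 had 0.87, and Hist1h2bq and Hist1h2br had 0.912 and 0.923. H1f1 shared 0% of its stretches, while the other 3 are among the genes whose stretches are mostly shared with other histone transcripts. The median r was 0.747 for the 43 replication-dependent genes with a match and 0.786 for the 6 searched without one.

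**Figure D3:**
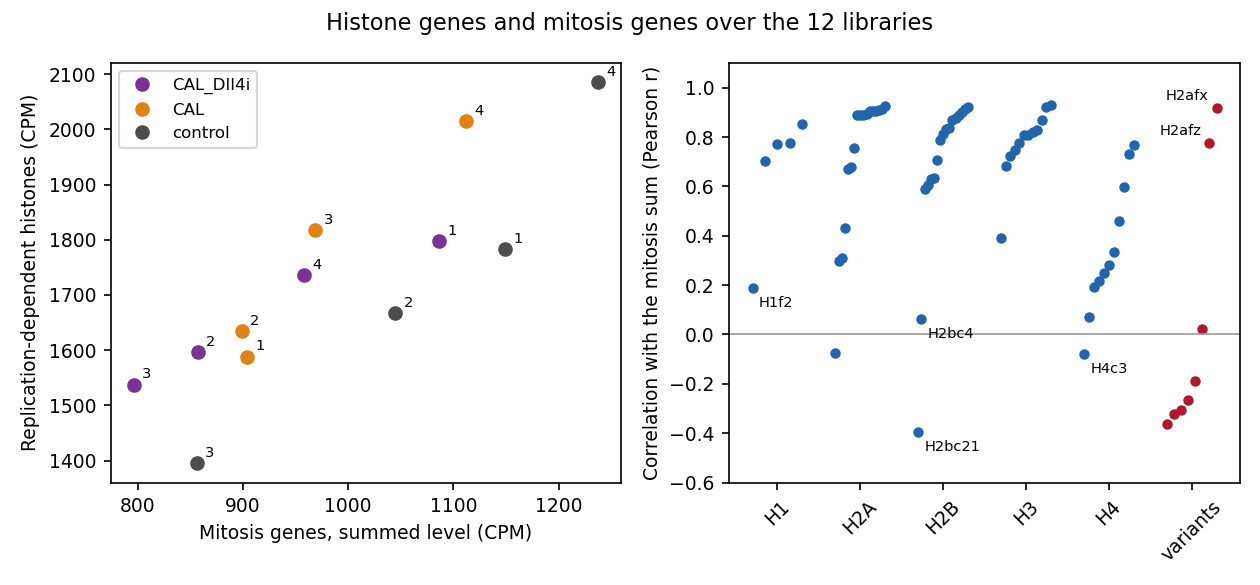
Left, summed replication-dependent histone level against the summed level of 22 mitosis genes (both CPM) in each library, numbered by replicate. Right, Pearson r of each gene with that mitosis sum over the 12 libraries, by family for replication-dependent genes (blue) and for variants of at least 1 CPM (red); H4 genes sit lowest among the replication-dependent families, and H2afx and H2afz stand above the other variants.

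The comparison of CAL with control asked whether adding ASC to the graft was associated with other histone levels. No histone gene passed edgeR's test: 0 of the 74 tested rose and 0 fell at an adjusted p under 0.05, where 0.00539% of all genes tested were called higher and 0% lower. DESeq2 called 0 of them as well, against 2.07% of all genes higher and 1.68% lower. At an unadjusted p under 0.05, 4 replication-dependent genes were higher and 1 was lower in CAL, beside 7.01% and 7.57% of all genes. The estimates of the 62 replication-dependent genes had a median log2 fold change of 0.02 (34 above 0 and 28 below), near the median of all genes of -0.01. This median rested on single libraries, being -0.09 without control replicate 3, -0.09 without CAL replicate 4, -0.01 without control replicate 2, 0.09 without CAL replicate 1, 0.16 without control replicate 4 and 0.17 when the muscle-containing libraries were left out.

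The families did not lie together. All 11 H4 genes had estimates above 0 in CAL against control, with a median of 0.24, where 48.4% of all genes had estimates above 0. The 4 of 62 replication-dependent genes higher at an unadjusted p under 0.05, beside 7.01% of all genes, were of this family (H4c3, H4c1, Hist1h4m and Hist1h4n). Hist1h4m shares 89.8% of its stretches with Hist1h4n, and Hist1h4n 83.2% with Hist1h4m, so these 2 are not separate values. Of 17 H2A genes, 12 were below 0, with a median of -0.15, where 51.6% of all genes were below 0, and the medians were -0.02 for H1, -0.05 for H2B and 0.05 for H3. None of these genes passed the adjusted test. Some marker lists of other cell types moved between the same groups. The 8 adipocyte genes were all above 0 with a median of 0.85, 7 of them at an unadjusted p under 0.05, beside 7.01% of all genes. The 6 neutrophil genes were all below 0 with a median of -1.25, 4 of them at that p, beside 7.57% of all genes. Their sum ranged from 199 to 277 CPM in CAL_Dll4i, 108 to 216 CPM in CAL and 206 to 381 CPM in control libraries. The 7 B and plasma cell genes were all above 0 with a median of 0.65, and 0 of them were at that p. Medians of the macrophage, endothelial and fibroblast lists were 0.003, 0.02 and 0.05, and that of 4 keratinocyte genes was -1.46. The part of these cells in the histone values was not tested.

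H4c3, which encodes histone H4 as the other genes of its family do, had 46.2, 37.2, 34.8 and 34.6 CPM in CAL replicates 1 to 4, against 29.6, 29.5, 21.3 and 33.9 CPM in control. The lowest CAL library lay just above the highest control, without overlap, as was the case for 3.61% of all genes in that direction and 3.75% in the other. Its log2 fold change was 0.42 ± 0.13 (SE, adjusted p = 0.210) in edgeR's quasi-likelihood test, where the DESeq2 adjusted p was 0.0626, and the estimate was 0.28 without the 3 libraries with muscle RNA. H4c1 had 19.6, 16.4, 16.9 and 16.3 CPM in CAL and 12.9, 12.5, 8.76 and 16.8 CPM in control, where control replicate 4 lay among the CAL values. Its log2 fold change was 0.44 ± 0.17 (SE, adjusted p = 0.278). Hist1h4n had 28.1, 36.1, 30.5 and 37.6 CPM in CAL and 25.2, 27.5, 20.2 and 33.6 CPM in control, again with an overlap through control replicate 4. H4c4, the H4 gene of the highest level, was at 118 ± 12.3 CPM in CAL and 112 ± 15.6 CPM in control (mean ± SD, n = 4 each), a log2 fold change of 0.08 ± 0.10 (SE, adjusted p = 0.736) in edgeR's test.

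Control replicate 3 was the lowest of the 12 libraries for 10 of the 11 H4 genes, and without it the H4 median in CAL against control was 0.13, while without control replicate 4 it was 0.40. Leaving out the muscle-containing libraries gave 0.24. Ratios between families were also taken within each library, 5 in all and with no test. The H4 sum over the H2A sum was 0.701, 0.655, 0.622 and 0.612 in CAL replicates 1 to 4 and 0.533, 0.543, 0.506 and 0.571 in control, without overlap. In CAL_Dll4i libraries the ratio was 0.674, 0.574, 0.689 and 0.601, also above every control. CAL replicates 1 and 2 were the highest of CAL, and CAL_Dll4i replicate 3 was the highest of its group, and these are the 3 libraries with muscle RNA. The 5 other grafts with ASC, with 1.79 to 9.87 CPM of muscle genes, ranged from 0.574 to 0.674, above the highest control at 0.571. H4 over H3 gave 0.803, 0.833, 0.865 and 0.781 in CAL_Dll4i, 0.926, 0.871, 0.779 and 0.740 in CAL and 0.742, 0.751, 0.757 and 0.715 in control, where CAL replicate 4 fell within the control range. Here too CAL replicates 1 and 2 were the highest of the 12 libraries and CAL_Dll4i replicate 3 was the highest of its group. H4 over H2B gave 1.05, 1.04, 1.13 and 1.01 in CAL_Dll4i, 1.35, 1.12, 0.937 and 0.893 in CAL and 0.921, 0.910, 0.783 and 0.897 in control, with CAL replicate 4 again within the control range. For this ratio the 3 libraries with muscle RNA were the 3 highest of the 12. H4 over H1 gave 4.74, 4.47, 4.58 and 4.84 in CAL_Dll4i, 5.52, 5.28, 4.63 and 4.68 in CAL and 3.76, 4.24, 3.46 and 4.21 in control, and each graft with ASC lay above every control. CAL replicates 1 and 2, with muscle RNA, were again the highest of the 12, while CAL_Dll4i replicate 3 lay within the range of its group. H2A over H2B was 1.57 to 1.81 in CAL_Dll4i, 1.46 to 1.93 in CAL and 1.55 to 1.73 in control libraries, and the groups overlapped.

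**Figure D4:**
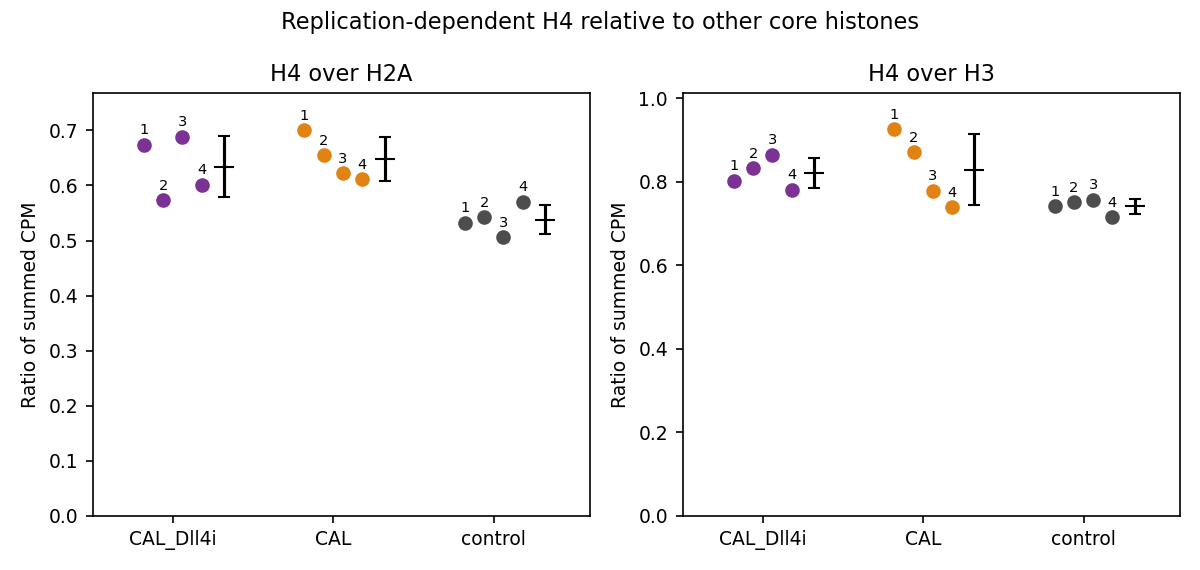
Ratio of the summed CPM of the H4 genes to that of the H2A genes (left) and of the H3 genes (right), replication-dependent genes only, in each library, numbered by replicate, with the mean and SD of each group. H4 over H2A lies at 0.574 to 0.701 in the 8 grafts with ASC and at 0.506 to 0.571 in the controls; for H4 over H3, CAL replicate 4 falls among the controls.

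Of the 5 linker histone genes, 3 had estimates below 0, beside 51.6% of all genes. H1f2 had 16.4, 18.6, 22.3 and 22.6 CPM in CAL and 23.2, 22.6, 26.2 and 23.6 CPM in control, with the 2 lowest values in CAL replicates 1 and 2, the CAL libraries with muscle RNA. Its log2 fold change was -0.26 ± 0.10 (SE, adjusted p = 0.279) in edgeR's test, and -0.09 without the libraries with muscle RNA. H1f4 had 25.9 ± 2.01 CPM in CAL and 29.97 ± 4.21 CPM in control (mean ± SD, n = 4 each), a log2 fold change of -0.21 ± 0.10 (SE, adjusted p = 0.350). H2ac18, the leading H2A gene, had 88.9, 90.1, 91.7 and 95.2 CPM in CAL and 83.6, 79.5, 76.3 and 93.5 CPM in control, where control replicate 4 lay within the CAL range, and its log2 fold change was 0.14 ± 0.07 (SE, adjusted p = 0.369). H3c13 and H3c14, the leading H3 genes, had estimates of 0.02 and -0.06, and H2bc4 and H2bc8, the leading H2B genes, -0.18 and -0.06.

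Variants were near their control level in CAL, with a median of -0.05 and 9 of 11 estimates below 0, beside 51.6% of all genes. H3f3a had 171 ± 4.44 CPM in CAL and 177 ± 13.2 CPM in control, and H2afz had 81.96 ± 2.36 CPM in CAL and 86.4 ± 4.30 CPM in control (mean ± SD, n = 4 each). Estimates of the 8 variants of at least 1 CPM ran from -0.14 (H2afj) to 0.12 (H2afv), and their groups overlapped in every case. H1f10 had the largest estimate, 0.53 ± 0.33 (SE), at a level under 1 CPM on average in each group.

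**Figure D5:**
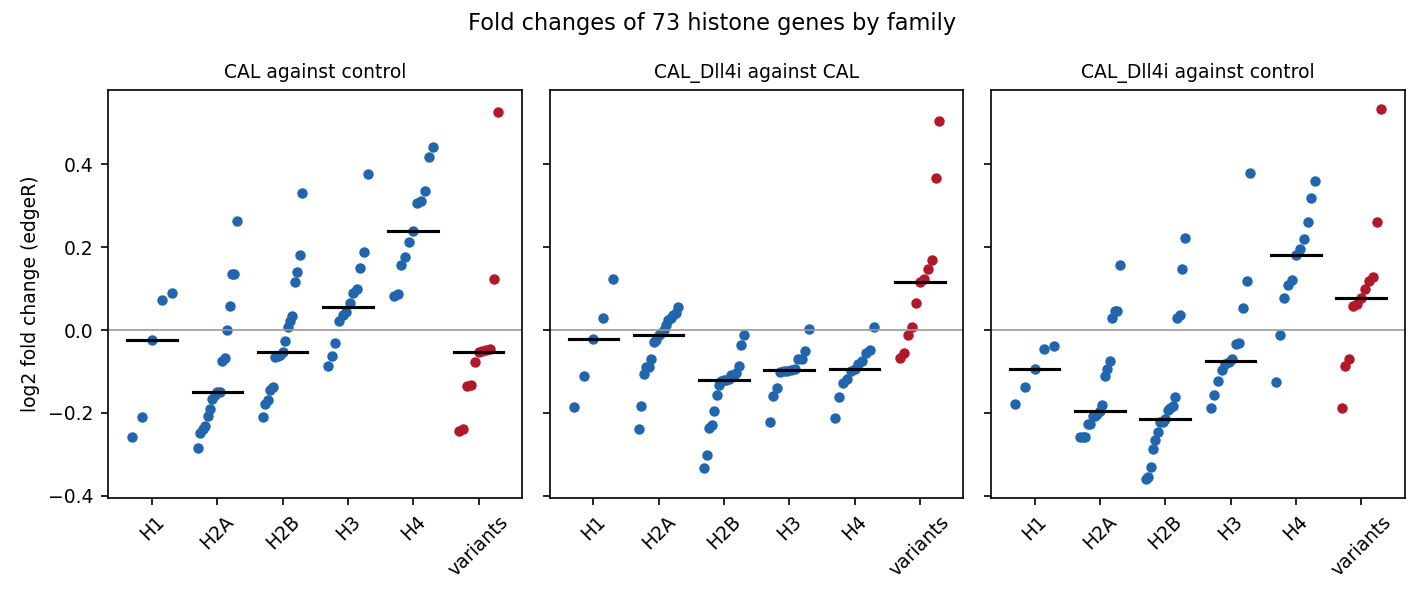
Log2 fold changes from edgeR of the 62 replication-dependent genes by family (blue) and the 11 variants (red) in the 3 comparisons, with the median of each column as a black line. All 11 H4 genes lie above 0 in CAL against control and 9 of 11 in CAL_Dll4i against control, and most replication-dependent genes lie below 0 in CAL_Dll4i against CAL.

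The comparison of CAL_Dll4i with CAL asked what inhibition of Dll4 added to grafts with ASC. Again 0 of 74 histone genes passed in either direction in edgeR or DESeq2, where edgeR called 0% of all genes in either direction and DESeq2 called 0% higher and 0.0054% lower. Of the replication-dependent genes, 51 of 62 had estimates below 0, with a median log2 fold change of -0.10, where 48.7% of all genes were below 0 and their median was 0.00. All 17 H2B genes were below 0 (median -0.12), as were 11 of 12 H3 genes (-0.10), 10 of 11 H4 genes (-0.09), 10 of 17 H2A genes (-0.01) and 3 of 5 H1 genes (-0.02). None of the 62 reached an unadjusted p under 0.05 in either direction, beside 4.47% of all genes higher and 2.95% lower. No histone gene's CAL_Dll4i libraries lay wholly outside its CAL libraries, where 1.58% of all genes were higher and 1.76% lower without overlap. CAL replicate 4 had the second-highest replication-dependent sum of all libraries, and without it the median was 0.00. It was -0.05 without CAL_Dll4i replicate 3, -0.06 without CAL_Dll4i replicate 2, -0.15 without CAL_Dll4i replicate 1 and -0.18 when the muscle-containing libraries were left out.

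Among the named genes, H2ac15, an H2A gene that stands head to head with H2bc15, had 58.1, 54.3, 44.9 and 61.3 CPM in CAL_Dll4i and 54.6, 59.9, 62.1 and 71.4 CPM in CAL, with overlap. Its log2 fold change was -0.18 ± 0.13 (SE, adjusted p = 0.781), and the lowest value was in CAL_Dll4i replicate 3, the library with the most muscle RNA. H2ac18 had 86.6, 94.03, 81.5 and 81.7 CPM in CAL_Dll4i, where replicate 2 lay within the CAL range, and a log2 fold change of -0.09 ± 0.07 (SE, adjusted p = 0.797). H4c3 was at 35.7 ± 2.56 CPM in CAL_Dll4i and 38.2 ± 5.46 CPM in CAL (mean ± SD, n = 4 each), a difference within the spread of CAL.

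Of the variants, 8 of 11 had estimates above 0, beside 51.3% of all genes, with a median of 0.12. H1f10, H2al1m and H2al1k, each under 1 CPM on average, are among these 8. Estimates of H2afx, H2afz and H2afv were below 0. H3f3b, 1 of the pair of H3.3 genes, had 126, 127, 109.7 and 127 CPM in CAL_Dll4i and 113, 116, 103 and 109.8 CPM in CAL. Of the CAL_Dll4i libraries, 3 lay above every CAL library, and replicate 3 lay within the CAL range. The log2 fold change was 0.15 ± 0.06 (SE, adjusted p = 0.659) with an unadjusted p of 0.0267, the only histone gene under 0.05 in this comparison, and 0.20 without CAL_Dll4i replicate 3. H3f3a had 172, 189.5, 179 and 201 CPM in CAL_Dll4i and 167, 177, 168 and 172 CPM in CAL, a log2 fold change of 0.12 ± 0.06 (SE, adjusted p = 0.689), with overlap through CAL_Dll4i replicate 1. H1f0, the linker histone known from resting and differentiated cells, had 48.4, 50.2, 51.4 and 48.8 CPM in CAL_Dll4i and 54.6, 42.8, 40.1 and 39.5 CPM in CAL, where CAL replicate 1, a library with muscle RNA, was the highest of all 12. The H3.3 genes together, in TPM, came to 0.342 ± 0.0397 of the replication-dependent H3 sum in CAL_Dll4i, 0.295 ± 0.0413 in CAL and 0.327 ± 0.0860 in control grafts (mean ± SD, n = 4 each), and the groups overlapped.

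CAL_Dll4i against control shares its libraries with both comparisons above. In it, 0 of 74 histone genes passed in edgeR, which called 0% of all genes in either direction, and 0 passed in DESeq2, which called 0.27% of all genes higher and 0.0594% lower. At an unadjusted p under 0.05, 1 replication-dependent gene was higher and 0 were lower, beside 3.86% and 3.06% of all genes. No histone gene's groups were free of overlap, beside 2.41% of all genes higher and 2.35% lower. The median of the replication-dependent genes was -0.10, with 42 of 62 below 0 beside 50.4% of all genes, and it was -0.20 without control replicate 3 and 0.01 without control replicate 4. By family the medians were -0.10 for H1, -0.19 for H2A, -0.21 for H2B, -0.07 for H3 and 0.18 for H4, where 9 of 11 genes were above 0, beside 49.6% of all genes. The H4 median was 0.07 without CAL_Dll4i replicate 1 and also 0.07 without control replicate 3. The gene under 0.05 was H4c3, with 37.3, 32.03, 37.6 and 35.9 CPM in CAL_Dll4i and the control values given above, a log2 fold change of 0.32 ± 0.13 (SE, adjusted p = 0.714), and control replicate 4 lay within the CAL_Dll4i range. H4c1 had 20.2, 15.5, 14.8 and 14.8 CPM in CAL_Dll4i, where replicate 1 stood apart from the other 3, and a log2 fold change of 0.36 ± 0.17 (SE, adjusted p = 0.716). The smallest p among estimates below 0 belonged to H2ac15, with a log2 fold change of -0.26 ± 0.13 (SE, adjusted p = 0.716), and to H1f4, with -0.18 ± 0.10 (SE, adjusted p = 0.722). Variants had a median of 0.08 with 8 of 11 above 0, beside 49.6% of all genes. H1f10, H2al1m and H2al1k, each under 1 CPM on average, are again among these 8.

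The genes that make, place and accompany histones were read from 4 lists. None of their tested members was called by edgeR in any comparison. For histone transcript processing and cluster transcription 20 genes were tested, and none was higher at an unadjusted p under 0.05. In CAL against control 4 of the 20 were lower at that p, beside 7.57% of all genes, with a median log2 fold change of -0.04. In CAL_Dll4i against CAL 0 were lower, beside 2.95% of all genes (median -0.04), and in CAL_Dll4i against control 3 were, beside 3.06% (median -0.08). Ncbp1, a subunit of the cap-binding complex, was at 141 ± 4.82 CPM in CAL_Dll4i, 142 ± 4.87 CPM in CAL and 149 ± 6.95 CPM in control grafts, and Cpsf3, the endonuclease that cuts histone transcripts after the stem-loop, was at 128 ± 7.17 CPM, 135 ± 1.27 CPM and 136 ± 1.61 CPM in the same groups (mean ± SD, n = 4 each). The smallest p of the list in CAL against control belonged to Sdad1 and to Zfp473, the mouse counterpart of a zinc finger protein of histone transcript processing, with log2 fold changes of -0.20 ± 0.07 and -0.62 ± 0.25 (SE) and edgeR adjusted p of 0.212 and 0.283. Sdad1 is among the lower genes counted above in both comparisons with control. Whether Sdad1 has a part in making histone transcripts was not examined, so its place on the list is uncertain. Zfp473 had 0.534, 0.611, 0.990 and 0.745 CPM in CAL and 1.12, 0.867, 1.07 and 1.40 CPM in control, with its 2 lowest values in CAL replicates 1 and 2, the CAL libraries with muscle RNA, and its estimate without the libraries with muscle RNA was -0.36.

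Of 32 chaperone and deposition genes, all tested, 18 had estimates above 0 in CAL against control (median 0.03), 7 in CAL_Dll4i against CAL (median -0.03) and 17 in CAL_Dll4i against control (median 0.00). The shares of all genes above 0 were 48.4%, 51.3% and 49.6% in the same comparisons. Atrx, which helps place H3.3, and Srcap, which exchanges H2A for H2A.Z, had the highest levels. Nap1l1, a chaperone of H2A and H2B, had the smallest p in CAL against control, with 257.7, 249.4, 227.7 and 226.8 CPM in CAL and 218, 206, 216 and 207 CPM in control. The highest 2 values were in CAL replicates 1 and 2, the CAL libraries with muscle RNA, and the other CAL libraries also lay above every control. Its log2 fold change was 0.18 ± 0.05 (SE), with an adjusted p of 0.175 in edgeR and 0.0268 in DESeq2, the only gene of these 4 lists that DESeq2 called in any comparison. Without the libraries with muscle RNA the estimate was 0.10, with an edgeR adjusted p of 0.541. The CAL_Dll4i libraries had 228, 227, 236 and 242 CPM of Nap1l1, also above every control, as for 2.41% of all genes. In CAL_Dll4i against control its log2 fold change was 0.14 ± 0.05 (SE, adjusted p = 0.714) in edgeR's test.

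The 31 genes of DNA replication and S phase summed to 1129, 1013, 1009 and 988 CPM in CAL_Dll4i, 1076, 1078, 1099 and 1318 CPM in CAL and 1148, 1092, 1048 and 1149 CPM in control libraries, and CAL replicate 4 stood above all the others. In CAL_Dll4i against CAL, 30 of the 31 estimates were below 0, beside 48.7% of all genes, with a median of -0.18 that was -0.08 without CAL replicate 4. In CAL_Dll4i against control 29 were below 0, beside 50.4% of all genes, with a median of -0.14 that ran from -0.21 to -0.09 with each library left out in turn. In CAL against control 21 were above 0, beside 48.4% of all genes, with a median of 0.06 that was -0.05 without CAL replicate 4. Pcna, the clamp of the replication fork, was at 241 ± 12.6 CPM in CAL_Dll4i, 248 ± 22.6 CPM in CAL and 248 ± 15.7 CPM in control grafts, and Mcm6, a helicase subunit, was at 90.3 ± 6.39 CPM, 102 ± 9.11 CPM and 91.9 ± 9.78 CPM (mean ± SD, n = 4 each). All 22 mitosis genes were below 0 in CAL_Dll4i against control, beside 50.4% of all genes, with a median of -0.22. In CAL_Dll4i against CAL 20 were below 0, beside 48.7% of all genes, with a median of -0.08. In CAL against control 19 were below 0, beside 51.6% of all genes, with a median of -0.14. With each library left out in turn, the mitosis median in CAL_Dll4i against control ran from -0.34 (without CAL_Dll4i replicate 1) to -0.13 (without CAL_Dll4i replicate 3, a library with muscle RNA), and it was -0.14 without control replicate 4. In CAL_Dll4i against CAL it ran from -0.20 (without CAL_Dll4i replicate 1) to 0.01 (without CAL_Dll4i replicate 3), and it was -0.05 without CAL_Dll4i replicate 2 and 0.01 without CAL replicate 4. In CAL against control it was -0.22 without CAL replicate 4, -0.05 without control replicate 4 and -0.03 when the muscle-containing libraries were left out. Mki67 was at 371 ± 40.3 CPM in CAL_Dll4i, 381 ± 37.6 CPM in CAL and 431 ± 72.8 CPM in control grafts (mean ± SD, n = 4 each), and the group means differed by less than the SD of the controls. In CAL against control the mitosis genes had a median below 0 and the H4 genes a median above 0, and the difference between these lists was not tested.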

How the data were processed

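The submitters' processing notes name HISAT2, StringTie and the mm10 build, without versions, and how reads shared by several genes were counted is not stated there. The deposited estimated counts are whole numbers per gene, made by the authors and not scaled between libraries. The deposited TPM values, which the authors scaled for length and library total, gave levels compared between genes. The deposited FPKM values were not used for results. Each library held 55883051 to 70804141 counts.

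All 12 libraries entered a single edgeR 4.0.16 fit (R 4.3.3, TMM scaling, filterByExpr, robust quasi-likelihood test, 1 coefficient per group) over the 18551 genes that passed the filter, with Benjamini-Hochberg adjustment over all of them and calls at 0.05. CPM values are TMM-scaled. The code was tested on simulated data. DESeq2 1.42.0, other scalings and filters, only the groups compared, a replicate block and each library left out were alternatives. The members, the lists and their tests were chosen with earlier results of these data known, so sums and lists carry no p. Named members are the 3 highest replication-dependent genes of each family by TPM, variants of at least 1 CPM and, per comparison and direction, the 2 with the smallest p. Other members were named after their values were seen. Stem-loops were searched in 3′ UTRs of GENCODE mouse transcripts, and promoters and positions are from RefSeq (GRCm38.p6). A gene pair was head to head within 500 bases. Figures used Python 3.11.15 and matplotlib 3.10.9.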

Additional observations from a re-analysis of the deposited data

Results flagged for a closer look

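Each group of 4 libraries was searched for a library far from the other 3, over 93 groups of histone genes and sums, and 2 stood apart; chance gives about 5% of groups. H3f3b was at 109.7 CPM in CAL_Dll4i replicate 3, against 125.6 to 127.2 CPM in the other 3 CAL_Dll4i libraries. This is the CAL_Dll4i library with muscle RNA. H4c1 was at 20.2 CPM in CAL_Dll4i replicate 1, against 14.8 to 15.5 CPM in the other 3 CAL_Dll4i libraries.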

How the results depend on the processing

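No histone gene was called in any of the 3 comparisons under RLE or upper-quartile scaling, no filter, a filter at 1 CPM in 4 libraries, DESeq2, only the groups compared, or with any single library left out. Of 704 recomputed values, 687 stayed on their side of the threshold or within the spread of the reported value, 1 passed it (Nap1l1 in DESeq2, adjusted p = 0.0268) and 16 moved. The 16 were the genes called in the whole table and the sums in TPM. The rule was wide: a replication-dependent median counted as unmoved if it shifted by less than 0.21 in log2. A single gene counted so if it kept its sign and its side of the threshold. The 687 therefore do not show that the medians were stable, and the replication-dependent median in CAL against control rested on single libraries. In CAL against control, 633 genes were called with DESeq2, 0 with only the groups compared, 0 without the 3 libraries with muscle RNA (chosen after seeing the data) and 0 to 6 with each library left out, against 1 as reported. DESeq2 called 1 gene in CAL_Dll4i against CAL and 61 in CAL_Dll4i against control, against 0 in edgeR. The replication-dependent sum in deposited TPM was 7374 in CAL_Dll4i, 8099 in CAL and 8076 in control grafts, and the variant sum was 883, 867 and 918, on another scale than CPM by construction. With each library left out, the replication-dependent median in CAL against control ran from -0.09 to 0.16. Samples of the same replicate number did not deviate together (r from -0.405 to 0.166, and no library was closest to its own number). With 4 libraries per group this cannot settle whether equal numbers share a source, which the labels do not say. With the replicate block, 0 histone genes were called and the replication-dependent median in CAL against control was 0.04. Depth limited H2ac1, with 1 or 2 counts in each library, and reads shared by near-identical genes limit values of single genes.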
